A study of Mus musculus with 24 samples.

Results

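The 10 genes described here across mouse islets with and without a deletion of the ubiquitin ligase gene Cop1 are Cop1 itself, its ligase partners Det1, Dda1, Ddb1, Cul4a, Cul4b and Rbx1, and the adaptor genes Trib1, Trib2 and Trib3. They were chosen by name as members of the CRL4-COP1-DET1 ligase and as Tribbles adaptors, not by their values, and all 10 were found among the 28059 genes of the table. RNA sequencing had been done on cultured, hand-picked islets of mice aged 3 to 4 months on a mixed background, and the values are RPKM (reads scaled by gene length and by library size). The libraries fall into 2 sets by the number range in their titles, and each set has its own control. All animals carry Cop1 fl/fl, that is, both Cop1 alleles can be cut by Cre recombinase. The controls of both sets carry nothing else (3 libraries in set 1 and 4 in set 2). The Cop1 deletion groups add Pdx1.CreERT2 (3 and 4 libraries). This transgene places a Cre that acts only in the presence of tamoxifen under the promoter of Pdx1, a gene that adult islets use mainly in β cells. The Cop1 Etv1/4/5 deletion group of set 1 (4 libraries) has Etv1 fl/fl, Etv4 ko/ko and Etv5 fl/fl beside Cop1 fl/fl and Pdx1.CreERT2. The Cop1 Etv4/5 deletion group of set 2 (4 libraries) has Etv4 ko/+ and Etv5 fl/fl beside Cop1 fl/fl and Pdx1.CreERT2, so it keeps 1 Etv4 allele. Since by genotype no control carries Cre, the deletion of Cop1 and the presence of CreERT2 cannot be told apart.

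COP1 is a RING-type ubiquitin ligase that binds substrate proteins and marks them for destruction by the proteasome. In mammals it can work inside a cullin-RING ligase: DET1 and DDA1 tie it to DDB1, DDB1 sits on the scaffold CUL4A or CUL4B, and RBX1 at the other end of the scaffold brings the ubiquitin-loaded enzyme. Tribbles proteins are pseudokinases that hold a substrate in the kinase fold and COP1 through a motif in their tail, so that COP1 can reach proteins it does not bind alone, such as C/EBPα. In β cells the best known COP1 substrates are the ETS factors ETV1, ETV4 and ETV5.

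Across the 22 libraries used, total RPKM ran from 524289 to 682560, and the 2 insulin genes made up 21.0% to 41.1% of it. Relative to the deepest library, set 1 libraries had a read depth of 0.331 to 0.526 and set 2 libraries one of 0.758 to 1. The whole reads behind each value of the 10 genes could be recovered from the steps of the table, as the smallest whole numbers that fit. They ran from 77 to 423 for Cop1, from 111 to 549 for Det1 and from 189 to 584 for Trib2, which puts the counting error of single Cop1 values between 4.86% and 11.4%. For the other 7 genes the lowest library held at least 448 reads. These errors cover counting only, and reads without molecular tags are not independent molecules. Esr1, the estrogen receptor gene whose domain is part of CreERT2, reached 99.1 RPKM in the library labelled set 1 control replicate 2, while the other controls had 0.04997 to 0.2004. Most set 1 results of Cop1, Ddb1 and the Tribbles genes against control are therefore also given without that library, and those of other genes are not. In the libraries labelled Cop1 Etv1/4/5 deletion, Etv4, which their genotype gives as ko/ko, was higher and not lower than in controls. It was 1.26 ± 0.298 RPKM in them (n = 4) and 0.0728 ± 0.0397 in set 1 controls (n = 3). Etv1 and Etv5, which the genotype also deletes, were not called lower in them than in controls (log2 -0.27 and -0.24, adjusted p = 0.828 and 0.954 in limma). Esr1 in these libraries was 54.8 to 81.0 RPKM. A value per gene sums reads over all exons that an altered allele still transcribes. These values therefore do not settle whether the label holds, which was not tested. Directions drawn from these libraries rest on their label. Within the islets the hormone markers Ins1, Ins2, Gcg, Sst, Ppy, Iapp and Chga were all present in every group. In bulk tissue, fewer cells of a type and less RNA per cell cannot be told apart.

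At the level of RNA the complex was unevenly stocked. On the per-length RPKM scale, Cop1 was the lowest of the 10 genes in each of the 6 groups, and Ddb1 was first or second in each. In set 2 controls the order of mean RPKM was Ddb1 (114 ± 7.03, SD, n = 4), Trib3 (83.6 ± 32.5), Cul4a (32.4 ± 3.26), Trib1 (27.5 ± 3.31), Dda1 (23.9 ± 0.598), Rbx1 (23.02 ± 1.043), Cul4b (15.8 ± 0.577), Det1 (4.36 ± 0.631), Trib2 (2.33 ± 0.397) and Cop1 (1.64 ± 0.194). The ranges of Ddb1 and Trib3, of Cul4a and Trib1, and of Dda1 and Rbx1 overlapped, and the other neighbours in this order did not. Set 1 controls ranked Trib1 (71.1 ± 5.11, n = 3) beside Ddb1 (63.1 ± 6.61), with overlapping ranges. Then came Cul4a (26.0 ± 1.19), Dda1 (21.4 ± 0.606), Cul4b (17.9 ± 0.524), Trib3 (17.8 ± 8.33), Rbx1 (17.1 ± 0.640), Det1 (2.71 ± 0.627), Trib2 (2.70 ± 0.222) and Cop1 (1.44 ± 0.186). There Cul4b, Trib3 and Rbx1 overlapped, as did Det1 and Trib2. Both genes that name the CRL4-COP1-DET1 ligase, Cop1 and Det1, were thus far below its shared parts: the median ratio of Ddb1 to Cop1 was 43.5 in set 1 controls and 68.5 in set 2 controls, and that of Det1 to Cop1 was 1.77 and 2.50.

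The controls of the sets did not have the same levels. Their ranges did not overlap for 8 of the 10 genes, against 56.6% of the 14342 genes tested. The mean of Trib3 in set 2 controls was 4.69 times that in set 1 controls, that of Ddb1 was 1.81 times and that of Det1 1.61 times, while that of Trib1 was 0.387 times. Cop1 and Trib2 were the 2 genes whose controls overlapped. The sets also differ in read depth, set and depth cannot be told apart here, and the comparisons that follow stay within a set or average the changes of both.

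**Figure D1:**
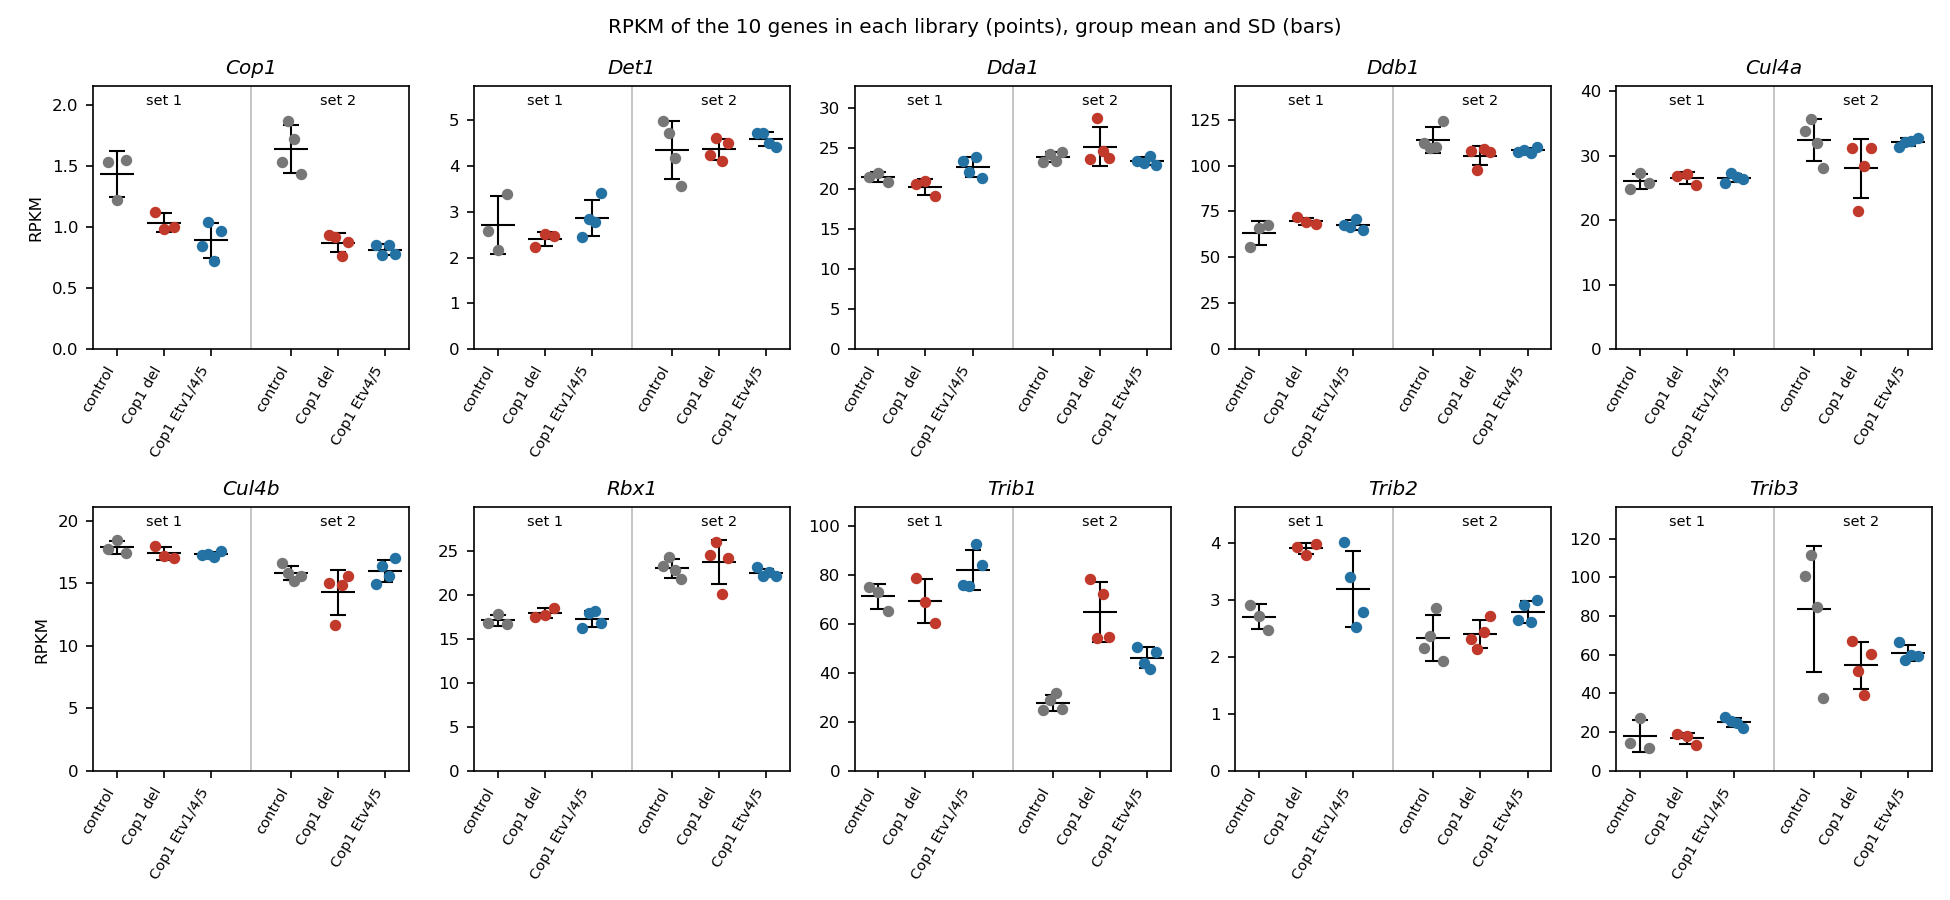
RPKM (linear axis from 0) of each of the 10 genes, 1 panel a gene, in the 3 groups of set 1 and the 3 of set 2. Points are libraries, the horizontal bar is the group mean and the whisker is the SD. Cop1 is lower in every deletion library than in every control of its set, Trib1 separates the 3 groups of set 2 without overlap, and 1 control of set 2 holds Trib3 at 37.7 RPKM.

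Cop1 RNA was lowered but not lost in the libraries labelled with a Cop1 deletion. In set 1 it was 1.53, 1.22 and 1.55 RPKM in the controls, 1.13, 0.984 and 1.002 after Cop1 deletion, and 0.844, 1.039, 0.719 and 0.968 in the libraries labelled Cop1 Etv1/4/5 deletion. The set 2 values were 1.54, 1.87, 1.72 and 1.43 in the controls, 0.934, 0.922, 0.763 and 0.880 after Cop1 deletion, and 0.853, 0.770, 0.856 and 0.783 in the Cop1 Etv4/5 deletion libraries. Every library labelled with a Cop1 deletion lay below every library labelled control in its set, and the Cop1 deletion and Etv deletion libraries overlapped in both sets. The lowest set 1 control, at 1.22, is replicate 2, the library with Esr1. As a share of the control mean, 72.2% ± 5.47 (n = 3) of Cop1 remained after Cop1 deletion in set 1 and 53.3% ± 4.76 (n = 4) in set 2. With the added Etv deletions 62.1% ± 9.80 and 49.7% ± 2.77 remained (n = 4 each). A value per gene sums reads over the exons that Cre removes and those it leaves, and cells outside the Pdx1 domain keep both alleles, so what the remainder comes from was not tested.

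The size of the Cop1 decrease was larger than the spread between libraries in set 2. On the log2(RPKM + 0.5) scale, which understates changes of genes as low as Cop1, it fell by 0.64 in set 2 (SE 0.09, adjusted p = 0.00011 in limma, Benjamini-Hochberg over 14342 genes) and by 0.48 over both sets (SE 0.07, adjusted p = 7.79e-05 in limma). In set 1 the change was -0.33 (SE 0.11), which missed the threshold of 0.05 (adjusted p = 0.066 in limma) although the groups did not overlap. Without set 1 control replicate 2, the control library with Esr1, it was -0.41 (adjusted p = 0.0324 in limma), and 67.2% of Cop1 then remained. The sets did not differ in the size of the change beyond the threshold (difference 0.31, 95% interval 0.01 to 0.60, adjusted p = 0.277 in limma). Against controls, the libraries labelled Cop1 Etv1/4/5 deletion were lower by a log2 change of -0.48 (SE 0.10, adjusted p = 0.0187 in limma) and the Cop1 Etv4/5 deletion libraries by -0.70 (SE 0.09, adjusted p = 7.87e-05 in limma). The first of these was -0.56 without the library labelled set 1 control replicate 2 (adjusted p = 0.00877 in limma), and 57.8% of Cop1 then remained. That call is lost without set 1 control replicate 1 (adjusted p = 0.12 in limma) or 3 (0.106), and without Cop1 Etv1/4/5 deletion replicate 1 (0.0641) or 3 (0.0805). Added Etv deletion left Cop1 at a log2 change of -0.15 (95% interval -0.36 to 0.06) against Cop1 deletion alone in set 1 and of -0.06 (-0.26 to 0.13) in set 2, neither past the threshold. Since the deletion was aimed at Cop1, this decrease checks the labels and is no finding about its partners.

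Counted over all 10 genes, Cop1 deletion raised 1 and lowered 0 in set 1, where 8.33% of all genes tested were called (adjusted p under 0.05 in limma), 4.04% higher and 4.29% lower. For set 2 the deletion raised 1 and lowered 1, where 18.8% were called, 9.09% higher and 9.75% lower. Over both sets it raised 2 and lowered 1, where 20.1% were called, 9.57% higher and 10.5% lower. The genes were Trib2 in set 1, Trib1 and Cop1 in set 2, and Trib1, Trib2 and Cop1 over both. Groups did not overlap for Cop1, Ddb1 and Trib2 in set 1 (29.9% of all genes tested) and for Cop1, Ddb1 and Trib1 in set 2 (16.1%). The median log2 change of the 10 genes was -0.02 in set 1, -0.05 in set 2 and -0.03 over both sets, beside -0.01, -0.02 and -0.02 over all genes tested. These shares do not set the group as a whole apart from the background, and the account therefore goes gene by gene.

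**Figure D2:**
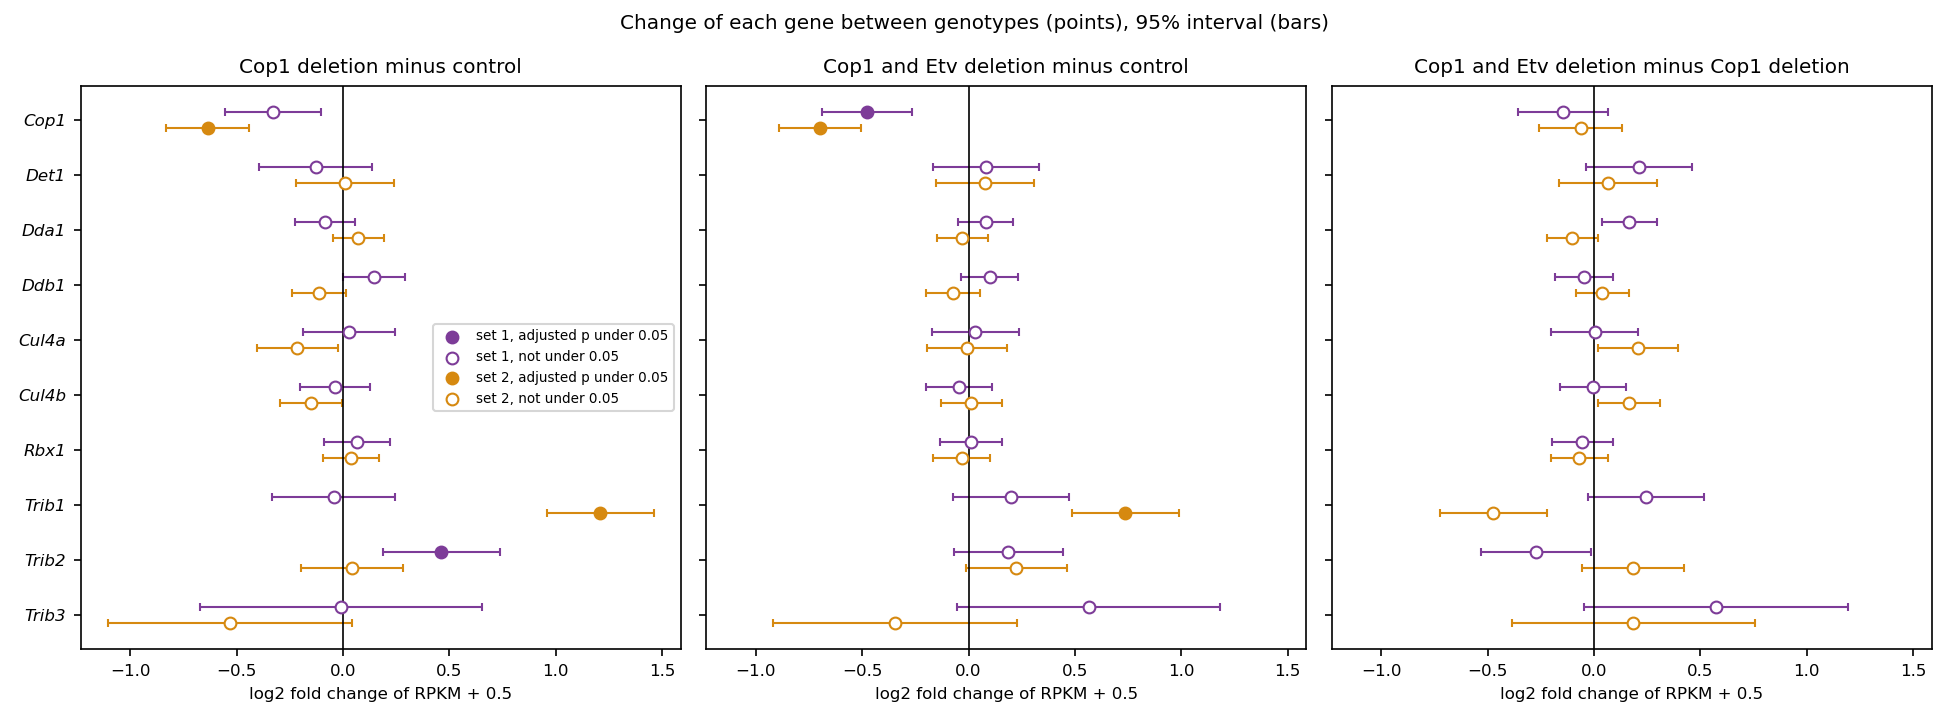
Log2 fold change of RPKM + 0.5 (horizontal axis) for each of the 10 genes in 3 comparisons, 1 panel each, with set 1 in purple and set 2 in orange. Bars are 95% intervals from limma, and filled points have an adjusted p under 0.05: Cop1 in 3 places, Trib1 in 2 and Trib2 in 1.

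The adaptors that join COP1 to the cullin were not called after Cop1 deletion. Det1, whose product bridges COP1 and DDB1, had 2.57, 2.16 and 3.40 RPKM in the set 1 controls and 2.22, 2.51 and 2.48 in the Cop1 deletion libraries. Set 2 controls had 4.98, 4.72, 4.18 and 3.56, against 4.23, 4.61, 4.11 and 4.51 with the deletion. The groups overlapped in both sets, and the log2 change over both sets was -0.06 (95% interval -0.24 to 0.12, adjusted p = 0.664 in limma). The median ratio of Det1 to Cop1 was 2.47 after Cop1 deletion in set 1 and 5.06 in set 2, beside the control ratios of 1.77 and 2.50 above. Dda1, a small subunit that steadies the DDB1 and DET1 contact, averaged 21.4 ± 0.606 RPKM (SD) over the 3 controls of set 1, 20.2 ± 0.983 over its 3 Cop1 deletion libraries and 22.7 ± 1.24 over the 4 libraries labelled Cop1 Etv1/4/5 deletion. The last 2 of these groups did not overlap (30.7% of all genes tested did not), but the difference of 0.17 log2 (SE 0.06) was not called (adjusted p = 0.131 in limma). It is called without set 2 Cop1 deletion replicate 2, which enters only through the shared variance (adjusted p = 0.0254 in limma), and with library weights (0.13, adjusted p = 0.0161 in limma). Here and below, limma estimates these weights from how far each library lies from the mean of its own group. Libraries that disagree with their group thus count less, and the weights are no separate measure of quality. In set 2 Dda1 was 23.9 ± 0.598, 25.2 ± 2.40 and 23.4 ± 0.514 (n = 4 each), and its highest value, 28.8, was that of Cop1 deletion replicate 2.

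Ddb1, the adaptor shared by CUL4 ligases, had small differences of opposite sign in the sets, and neither was called. Set 1 values were 55.5, 66.3 and 67.6 RPKM in controls and 71.9, 69.3 and 68.1 after Cop1 deletion, and all 3 deletion libraries were above all 3 controls. Set 2 values were 112, 109.4, 110.3 and 124 in controls and 107.8, 97.5, 109.1 and 107.4 after Cop1 deletion, so that all 4 deletion libraries were below all 4 controls. The log2 changes were 0.15 (SE 0.07, adjusted p = 0.236 in limma) and -0.11 (SE 0.06, adjusted p = 0.195 in limma), and the difference between the sets was 0.26 (SE 0.09, adjusted p = 0.15 in limma). With library weights the set 1 change of Ddb1 was 0.28 and was called (adjusted p = 3.54e-05 in limma). So were the difference between the sets (0.33, adjusted p = 0.000503 in limma), the change over both sets (0.12, 0.00352) and that of Cop1 Etv1/4/5 deletion against control (0.23, 0.000846). Without the library labelled set 1 control replicate 2 the set 1 change was 0.18 (adjusted p = 0.171 in limma). With the added Etv deletions Ddb1 was 67.4 ± 2.66 RPKM in set 1 and 108 ± 1.45 in set 2 (n = 4 each), both overlapping the Cop1 deletion libraries. The set 1 mean was 107% of the control mean, and 110% without the library labelled set 1 control replicate 2.

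The cullin scaffold is encoded by a pair of genes, neither called in any comparison when libraries had equal weight and all were in the fit. Cul4a, the more abundant of them, had 24.9, 27.2 and 25.8 RPKM in the set 1 controls and 26.9, 27.2 and 25.4 in the Cop1 deletion libraries. Its set 2 values were 33.8, 35.7, 31.9 and 28.0 in controls, 31.1, 21.4, 28.3 and 31.2 after Cop1 deletion, and 31.3, 32.04, 32.2 and 32.7 in the Cop1 Etv4/5 deletion libraries. Deletion and control overlapped in both sets, while the Cop1 Etv4/5 deletion libraries all lay above the Cop1 deletion libraries. Neither the set 2 change after Cop1 deletion (-0.21 log2, SE 0.09, adjusted p = 0.102 in limma) nor the difference made by the Etv4/5 deletion (0.21, SE 0.09, adjusted p = 0.189 in limma) was called. Much of both rests on Cop1 deletion replicate 2: without it the first was -0.09 (adjusted p = 0.356 in limma). Left without set 2 control replicate 4, or without Cop1 deletion replicate 1 or 4, the first is called (-0.28, -0.27 and -0.27, adjusted p = 0.0318, 0.0457 and 0.0477 in limma). With library weights it is also called at -0.12 (adjusted p = 0.0267 in limma), as is the difference between the sets, 0.21 (adjusted p = 0.0108 in limma). Cul4b, the X-linked scaffold gene, averaged 17.9 ± 0.524 RPKM over set 1 controls and 17.4 ± 0.511 over the Cop1 deletion libraries (n = 3 each). The controls of set 2 had 16.6, 15.8, 15.2 and 15.6, and there were 15.04, 11.6, 14.8 and 15.6 after Cop1 deletion, and replicate 2 was again the lowest. The set 2 change of Cul4b was -0.15 log2 (SE 0.07, adjusted p = 0.131 in limma), and without that library it was -0.06 (adjusted p = 0.429 in limma). All set 2 controls had Xist, the RNA of the inactive X chromosome, while Cop1 deletion replicates 2 and 3 had almost none (0.063 and 0.034 RPKM). With Xist as covariate the set 2 change of Cul4b was not called either, and this fit tests no cause. The ratio of Cul4a to Cul4b was higher in set 2 (group medians 1.95 to 2.07) than in set 1 (1.48 to 1.53), and within a set the groups overlapped except for the controls of set 1, all at or below 1.48 while the other set 1 libraries started at 1.49.

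Rbx1, which encodes the RING subunit that recruits the ubiquitin-loaded enzyme, had overlapping groups throughout. Set 1 means were 17.1 ± 0.640 RPKM for controls, 17.9 ± 0.560 for Cop1 deletion (n = 3 each) and 17.3 ± 0.917 for the libraries labelled Cop1 Etv1/4/5 deletion (n = 4). Those of set 2 were 23.02 ± 1.043, 23.7 ± 2.51 and 22.5 ± 0.502 in the same order (n = 4 each). The log2 change over both sets after Cop1 deletion was 0.05 (95% interval -0.05 to 0.15, adjusted p = 0.488 in limma). Only library weights gave Rbx1 a call, for Cop1 Etv4/5 deletion against Cop1 deletion (-0.11, adjusted p = 0.0224 in limma). A processed copy of Rbx1 exists in the mouse genome, Ddb1 and Dda1 each overlap a protein-coding gene on the opposite strand (Tkfc and Ano8), and Det1 overlaps a noncoding one. Cop1 overlaps Gm37115, Scarna3a and Mir1843b on its own strand and Gm37088 on the opposite strand. Cul4a and Trib2 each overlap a microRNA gene on the same strand (Mir7065 and Mir6387). How reads were assigned there is not given in the sources used here, so the values of all these genes are uncertain to that extent.

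Trib1 gave the largest change among the 10 genes, seen in set 2. TRIB1 recruits COP1 to C/EBPα. In set 2 Trib1 was 24.6, 28.9, 31.6 and 25.1 RPKM in controls, 78.4, 54.3, 72.1 and 54.7 after Cop1 deletion, and 50.7, 44.1, 41.3 and 48.4 in the Cop1 Etv4/5 deletion libraries. The 3 groups did not overlap, with controls lowest and Cop1 deletion highest (13.8% of all genes tested did not overlap between the 2 deletion groups, and 21.6% between the Cop1 Etv4/5 deletion and control). Trib1 rose 2.31-fold after Cop1 deletion (log2 1.21, SE 0.12, adjusted p = 1.52e-06 in limma) and was higher in 4 of 4 libraries than in any control. The Cop1 Etv4/5 deletion libraries were 1.67-fold above control (log2 0.74, SE 0.12, adjusted p = 0.000505 in limma). Between these and Cop1 deletion alone the change was -0.47 log2 (SE 0.12), on the threshold but not past it (adjusted p = 0.0504 in limma). With a pseudocount of 1 (adjusted p = 0.0476 in limma), median-ratio scaling (0.039), Xist as covariate (0.0471) or library weights (-0.34 log2, 0.00798) it is called. It also crosses the threshold without set 2 control replicate 4 (adjusted p = 0.0357 in limma), or without Cop1 deletion replicate 2 (0.0474) or 4 (0.0184).

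Set 1 showed no such rise of Trib1. It was 75.1, 72.9 and 65.4 RPKM in controls, 78.5, 68.9 and 60.3 after Cop1 deletion, and 75.9, 75.3, 92.5 and 84.0 in the libraries labelled Cop1 Etv1/4/5 deletion. Controls and Cop1 deletion overlapped (log2 -0.04, 95% interval -0.33 to 0.25, adjusted p = 0.92 in limma), and the control level was as high as the Cop1 deletion level of set 2. The libraries labelled Cop1 Etv1/4/5 deletion all lay above the controls, by 0.20 log2, which was not called (14.1% of all genes tested did not overlap, SE 0.13, adjusted p = 0.728 in limma). The change after Cop1 deletion differed between the sets by -1.25 log2 (set 1 minus set 2, SE 0.18, adjusted p = 0.00106 in limma), where 2.83% of all genes tested were called, 0.997% higher and 1.83% lower. Trib1 was the 1 gene of the 10 called in that comparison. The call over both sets (log2 0.58, SE 0.09, adjusted p = 0.00015 in limma) therefore averages a rise in set 2 and none in set 1. Leaving out the library labelled set 1 control replicate 2 changed none of the Trib1 calls named here.

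Some duct markers were higher beside Trib1 in set 2, while few or no markers of the other cell types were called. The summed RPKM of 9 duct markers ran from 1398 to 1845 in set 2 controls, 3029 to 4715 after Cop1 deletion and 1373 to 2965 in the Cop1 Etv4/5 deletion libraries. Of the 8 tested, 4 (Krt7, Krt18, Spp1 and Epcam) were called higher after Cop1 deletion, where 9.09% of all genes tested were. Without Spp1 the sums were 539 to 648, 1186 to 1441 and 901 to 960, so that these 3 groups did not overlap. Sox9, a transcription factor that marks duct cells, was not called (log2 0.14, adjusted p = 0.835 in limma). In set 1 the sum was 451 to 599 in controls and 548 to 631 after Cop1 deletion, and only Spp1 was called higher, where 4.04% of all genes tested were. Without it the set 1 sums overlapped, at 441 to 564 and 478 to 528. The 11 immune markers summed to 58.2 to 91.8 in set 2 controls, 71.5 to 175 after Cop1 deletion and 62.1 to 65.9 with the Etv4/5 deletion. Of the 10 tested, 1 (C1qb) was called higher after Cop1 deletion, near the 9.09% of all genes tested. Cop1 deletion replicates 1 and 4 had sums of 71.5 and 71.9, within the range of the controls. The sum of 12 acinar markers was 825 to 12545 in set 2 controls 4343 to 24068 after Cop1 deletion and 1099 to 4533 with the Etv4/5 deletion. Cop1 deletion against control had 0 of 10 called in limma (18.8% of all genes tested were) and 2 at an unadjusted p under 0.05. Between the Etv4/5 deletion and Cop1 deletion 0 were called in limma (1.73% of all genes tested were), but 10 of 10 were lower at an unadjusted p under 0.05, with a median log2 change of -1.98. In set 2, 0 of 6 endothelial and 0 of 7 stromal markers were called after Cop1 deletion, with median log2 changes of -0.03 and 0.12. No marker of these lists was at 0 in all libraries of a group. Their part in the Trib1 result was not tested. Without Cop1 deletion replicates 2 and 3, which have the highest immune sums, Trib1 changed by 1.24 log2 in set 2 (adjusted p = 2.2e-05 in limma). Replicates 1 and 4, which stay in that fit, had duct sums of 4342 and 3029. All set 2 controls had Xist, which the inactive X chromosome transcribes, and with it as covariate the Trib1 change was 1.24 (adjusted p = 6e-06 in limma). Cop1 deletion replicates 2 and 3 had almost no Xist (0.063 and 0.034 RPKM, against 74.2 and 48.3 in replicates 1 and 4). Leaving them out thus changes immune markers and Xist together, and neither fit tests a cause.

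**Figure D3:**
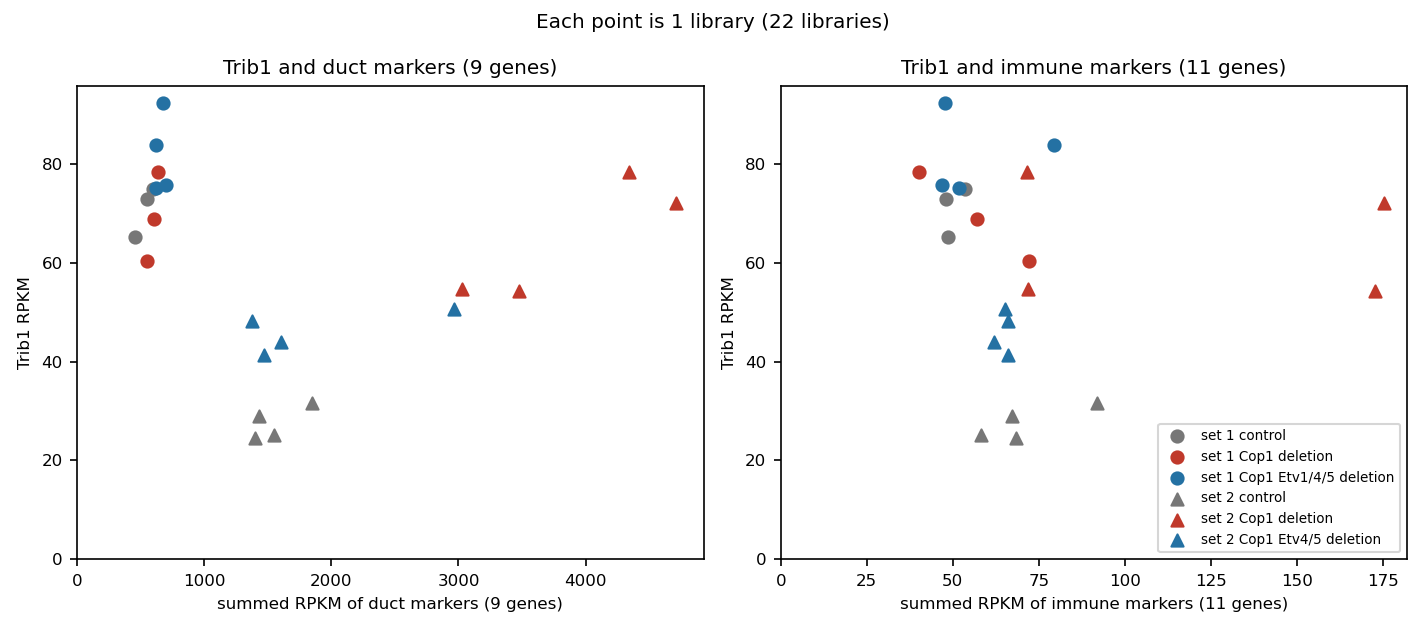
Trib1 RPKM (vertical axis) against the summed RPKM of 9 duct markers (left) and of 11 immune markers (right), 1 point a library, both axes linear from 0. Circles are set 1 and triangles set 2, in grey for control, red for Cop1 deletion and blue for the added Etv deletions. Within set 2 the Cop1 deletion libraries are highest in Trib1 (54.3 to 78.4) and in duct markers (3029 to 4715), while set 1 libraries have Trib1 of 60.3 to 92.5 at duct sums of at most 698.

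Trib2, another Tribbles gene whose product can bring C/EBPα to COP1, was low throughout and rose in set 1. The set 1 controls had 2.92, 2.71 and 2.47 RPKM, the Cop1 deletion libraries 3.93, 3.79 and 3.98, and there were 4.02, 3.40, 2.53 and 2.78 in the libraries labelled Cop1 Etv1/4/5 deletion. All Cop1 deletion libraries lay above all controls, and the Etv deletion libraries overlapped both. The rise was 1.38-fold (log2 0.46, SE 0.13, adjusted p = 0.0349 in limma). That call does not survive leaving out any 1 of the 6 control and Cop1 deletion libraries of set 1, with adjusted p from 0.0573 to 0.12 in limma and log2 changes from 0.41 to 0.51. In set 2 Trib2 was 2.16, 2.36, 2.86 and 1.93 in controls, 2.31, 2.14, 2.44 and 2.71 after Cop1 deletion, and 2.65, 2.92, 2.60 and 3.00 with the Etv4/5 deletion. Control and Cop1 deletion overlapped (log2 0.04, adjusted p = 0.833 in limma). The difference between the sets, 0.42 log2 (SE 0.17), was not called (adjusted p = 0.223 in limma), so the sets are not shown to differ in Trib2. Over both sets the change was 0.25 log2 (adjusted p = 0.0478 in limma), a call lost in 18 of the 22 fits that each left out 1 library and in 4 other settings.

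Trib3 had the widest relative spread of the 10 genes in both control groups and both Cop1 deletion groups (SD 17.3% to 46.7% of the mean), though not in the Etv deletion groups (9.38% and 6.77%). Its product can hold AKT or bring acetyl-CoA carboxylase to COP1, and its gene is a textbook target of ATF4 and CHOP, the transcription factors of the response to amino acid shortage and unfolded protein. Set 2 libraries held 100.4, 112, 84.4 and 37.7 RPKM in controls, 67.2, 51.4, 38.9 and 60.2 after Cop1 deletion, and 66.8, 57.3, 59.8 and 59.4 in the Cop1 Etv4/5 deletion libraries. Of the 4 controls, 3 lay above all other set 2 libraries and replicate 4 below them all. The change after Cop1 deletion was -0.53 log2 (SE 0.27) and was not called (adjusted p = 0.179 in limma). Without control replicate 4 it was -0.87 (adjusted p = 0.00725 in limma) in set 2 and -0.44 (adjusted p = 0.0496 in limma) over both sets. With library weights it was -0.69 in set 2 (adjusted p = 0.00099 in limma).

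The set 1 values of Trib3 have a similar lone control. They were 14.1, 27.4 and 12.004 RPKM in controls, 18.99, 17.9 and 13.5 after Cop1 deletion, and 27.8, 25.5, 24.6 and 22.2 in the libraries labelled Cop1 Etv1/4/5 deletion. The high control is replicate 2, the one with Esr1. Cop1 deletion and control overlapped (log2 -0.01, SE 0.32), and leaving out that library gave 0.34. Each Cop1 Etv1/4/5 deletion library was above each Cop1 deletion library, but the difference of 0.57 log2 (SE 0.30) was not called (adjusted p = 0.316 in limma). Library weights call it at 0.52 (adjusted p = 0.0147 in limma). They also call Trib3 for Cop1 Etv1/4/5 deletion against control (0.75, adjusted p = 0.00159 in limma), for Cop1 Etv4/5 deletion against control (-0.70, 0.000644) and for the difference between sets (0.92, 0.00297). With equal weights the first of these was 0.56 (SE 0.30) and was not called (adjusted p = 0.576 in limma). Trib3 in the libraries labelled Cop1 Etv1/4/5 deletion averaged 140% of the control mean, and 192% without the library labelled set 1 control replicate 2. With equal weights and all libraries, Trib3 was called in 0 of the 8 comparisons by limma, and 0 had an unadjusted p under 0.05. The Etv deletion comparisons gave few calls for the other genes too. Against Cop1 deletion alone, 0 of the 10 were called in set 1 (6.34% of all genes tested, 3.65% higher and 2.69% lower) and 0 in set 2 (1.73%, 0.676% higher and 1.05% lower), with 2 (Dda1 and Trib2) and 3 (Cul4a, Cul4b and Trib1) at an unadjusted p under 0.05. Against control, Cop1 was called in set 1 (1.32% of all genes, 0.899% higher and 0.418% lower) and Cop1 and Trib1 in set 2 (8.74%, 4.99% higher and 3.75% lower).

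The genes with the profile most like that of Trib3 were named next. After subtracting the mean of each set, the 5 highest Pearson correlations over 22 libraries were those of Sesn2 (r = 0.93), Atf4 (0.91), Slc1a4 (0.91), Chac1 (0.91) and Aldh18a1 (0.89). Sesn2 encodes a sensor of leucine, Slc1a4 a transporter of neutral amino acids, Chac1 an enzyme that breaks down glutathione and Aldh18a1 an enzyme of proline synthesis. The libraries share sets, groups and scaling, so these values describe the table and carry no p. Set 2 control replicate 4, low in Trib3, had 36.0 RPKM of Sesn2, 268 of Atf4 and 47.3 of Chac1, where the other 3 controls had at least 68.5, 335 and 118. In set 1, control replicate 2 had 33.2, 382 and 85.8, where the other 2 controls had at most 19.4, 341 and 48.4. Of 12 genes of the ATF4 and CHOP response listed beside Trib3, Atf4 itself among them, 7 had r above 0.5 with it, and Ddit4 had -0.74. Within each set alone these 7 stayed above 0.5, except Ppp1r15a (r = -0.01 in set 1 and 0.83 in set 2). Nupr1, not among the 7, had 0.79 in set 1 and 0.14 in set 2. The share of all genes tested with r above 0.5 was not computed. In set 1 Cop1 deletion called 0 of these 12 in limma (8.33% of all genes tested), with 1 at an unadjusted p under 0.05. The deletion called 4 lower in set 2 (9.75% of all genes tested), namely Atf3 (log2 -0.57, adjusted p = 0.00253 in limma), Psat1 (-0.84, 0.0101), Ddit3 (-0.58, 0.0381) and Chac1 (-0.83, 0.0405), and 1 higher (9.09%), Nupr1 (1.37, 0.0245).

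**Figure D4:**
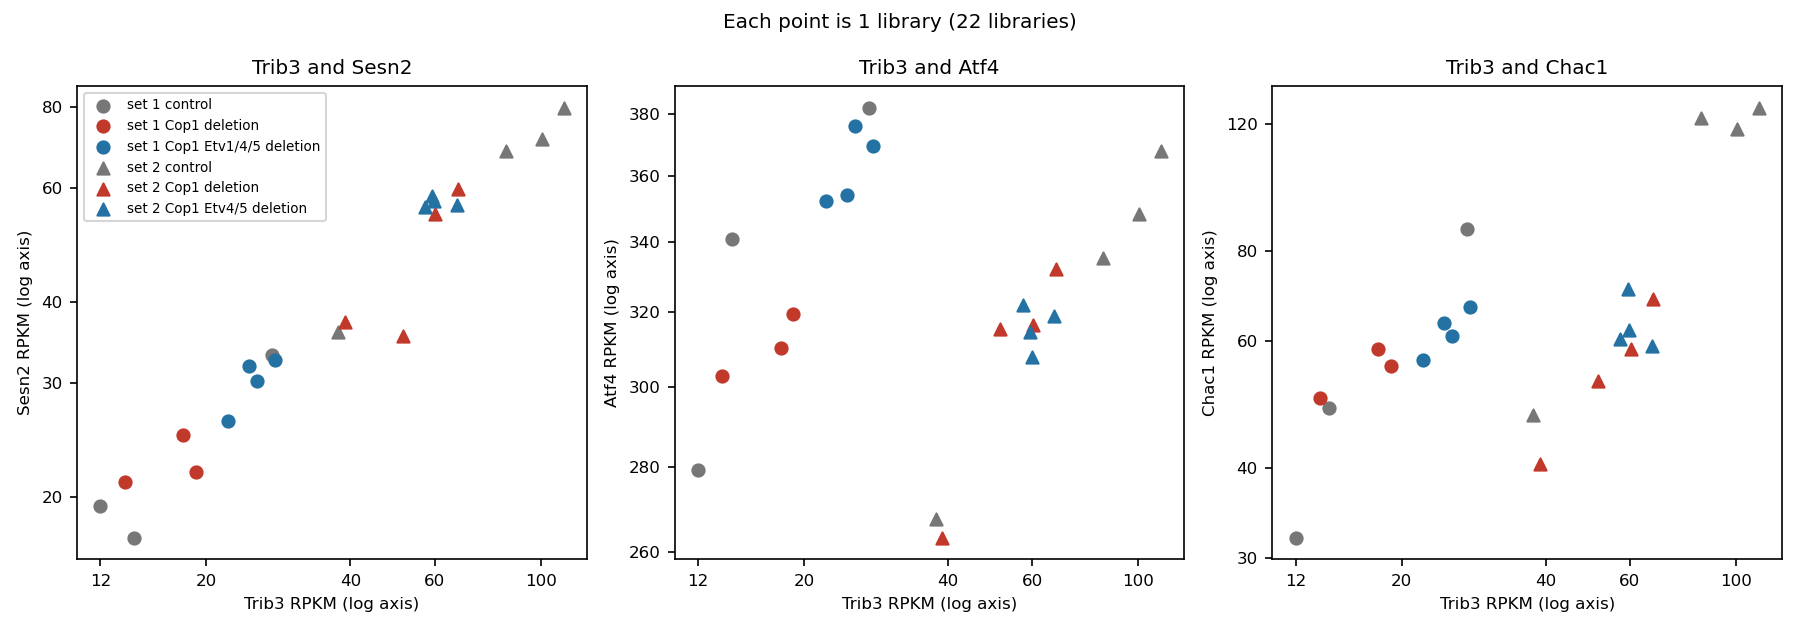
RPKM of Sesn2, Atf4 and Chac1 (vertical axes, log scale) against Trib3 (horizontal axis, log scale) in the 22 libraries, circles for set 1 and triangles for set 2. Colours give control (grey), Cop1 deletion (red) and added Etv deletions (blue). The set 2 control at 37.7 RPKM of Trib3 and the set 1 control at 27.4 stand away from the other controls of their set in all 3 panels.

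Sequences near the start sites were read for Trib3, the listed genes of the ATF4 and CHOP response and the genes most like Trib3. Of the listed genes with a match, Atf3 (r = 0.28), Nupr1 (0.33) and Vldlr (0.14) did not follow Trib3 closely. ATF4 paired with a C/EBP-type partner such as CHOP binds a composite motif of the form TGATGNAA. This motif was sought on both strands of the 300 bases from 250 before to 50 after each start in RefSeq (GRCm38.p6), and 3.97% of 32851 such windows held it. Of Trib3 and the 12 listed genes, 6 of 13 had a match, and Slc1a4 had one too. Among the 10 ligase and Tribbles genes, 9 had a window, and Trib3 was the 1 with a match. The matches are shown with 11 bases on each side, 5′ to 3′ on the strand that reads TGATGNAA, with the match in capitals.
Trib3 (chr2:152344028-152344057, + strand): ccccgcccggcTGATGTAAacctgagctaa
Chac1 (chr2:119351038-119351067, - strand): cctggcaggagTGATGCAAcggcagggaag
Slc1a4 (chr11:20332699-20332728, + strand): caggctggagaTGATGCAAcgcaggaggca
Atf3 (chr1:191183425-191183454, + strand): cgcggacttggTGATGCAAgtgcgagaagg
Nupr1 (chr7:126625562-126625591, + strand): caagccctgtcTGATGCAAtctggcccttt
Vldlr (chr19:27216809-27216838, - strand): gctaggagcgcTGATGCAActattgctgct
Asns (chr6:7693214-7693243, - strand): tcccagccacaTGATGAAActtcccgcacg
In Trib3 the match begins 15 bases after the start, on the strand opposite to the gene, and reads TGATGTAA, while 5 of the other 6 read TGATGCAA. Sesn2, Atf4 and Aldh18a1 have no match in this window although they are among the genes most like Trib3. A match is a description of letters and not a shown site of binding.

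The profile of Cop1 was most like those of C2cd4c (r = 0.89), Mast1 (0.89), Denr (0.88), Frmd7 (0.88) and Siah2 (0.87), by the same measure over 22 libraries. Denr encodes a factor of translation restart and Siah2 another RING-type ubiquitin ligase. For Trib1 they were Lratd1 (0.94), Bcl2l1 (0.93), Ctsb (0.91), Prkar1a (0.90) and Slc1a1 (0.89). Bcl2l1 encodes the survival protein BCL-XL, Ctsb a lysosomal protease, Prkar1a a regulatory subunit of protein kinase A and Slc1a1 a glutamate transporter. Within set 1 alone their r with Trib1 was lower, from 0.31 for Prkar1a to 0.79 for Bcl2l1, against 0.94 to 0.97 in set 2. For Trib2 the closest were Etaa1 (0.82), 1810062G17Rik (0.82), Gucy1b1 (0.81), 1700086L19Rik (0.80) and Anpep (0.77). These libraries again share set, group and scaling.

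The rest of the ligase machinery is given from lists of named genes. Of 22 other substrate receptors that dock on DDB1, 21 were tested, and over both sets Cop1 deletion raised 1 and lowered 1, where 9.57% of all genes tested rose and 10.5% fell. Ddb2, the receptor for damaged DNA, rose (log2 0.16, SE 0.05, adjusted p = 0.0208 in limma), with 8.05 ± 0.255 RPKM in set 2 controls and 9.59 ± 0.516 after deletion (n = 4 each). In set 1 it was 6.91 ± 0.705 and 7.28 ± 0.404 (n = 3 each), which was not called (adjusted p = 0.644 in limma). Ambra1, a receptor known from autophagy and cyclin D turnover, fell by 0.20 (SE 0.05, adjusted p = 0.00479 in limma), with 13.2 ± 0.612 and 11.1 ± 1.18 RPKM in the same groups of set 2. In set 1 Ambra1 was not called (log2 -0.15, adjusted p = 0.228 in limma). The median log2 change of the 21 was -0.09, beside -0.02 over all genes tested. Among 10 other cullins and their partners, 0 rose and 1 fell over both sets, Eloc (log2 -0.15, adjusted p = 0.0459 in limma), which encodes elongin C of the CUL2 and CUL5 ligases. Eloc was called in neither set alone (-0.24, adjusted p = 0.0622, in set 1 and -0.06, 0.571, in set 2, in limma).

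Cullins are switched on by the attachment of NEDD8 and recycled by CAND proteins. Of 13 genes of this cycle, 1 rose and 2 fell over both sets, which is near the 20.1% of all genes tested. Dcun1d3, which encodes a helper of cullin neddylation, fell by 0.46 log2 over both sets (SE 0.09, adjusted p = 0.00146 in limma). This averages a called fall in set 1 (-0.82, adjusted p = 0.000739 in limma) and none called in set 2 (-0.09, 0.623). The difference between the sets was called too (-0.73, adjusted p = 0.0379 in limma). Set 1 controls averaged 12.2 ± 1.81 RPKM and Cop1 deletion libraries 6.66 ± 0.677 (n = 3 each), while set 2 had 6.73 ± 1.11 and 6.29 ± 1.09 (n = 4 each). Uba3, the catalytic subunit of the NEDD8 activating enzyme, fell by 0.19 log2 (adjusted p = 0.0068 in limma), and Cand2, an exchange factor, rose by 0.21 (adjusted p = 0.00937 in limma). Of 12 ubiquitin activating and conjugating enzymes, 3 rose over both sets (Ube2e2, log2 0.20, Ube2d1, 0.18, and Ube2g1, 0.14) and 1 fell (Ube2d3, -0.15). Their adjusted p ran from 0.0065 to 0.0296 in limma, and 9.57% of all genes tested rose and 10.5% fell. Ube2d1 was called in set 2 (adjusted p = 0.00842 in limma) and not in set 1 (0.459). Ube2d3 was called in neither set alone (adjusted p = 0.138 in set 1 and 0.098 in set 2 in limma). Ube2g1 averaged 10.7 RPKM in controls and 12.8 after Cop1 deletion in set 1, and 12.2 and 12.6 in set 2.

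RNA of known COP1 substrates was called in both directions. COP1 acts on their proteins, which were not measured. Of 14 substrate genes, 2 rose and 3 fell over both sets, beside 9.57% and 10.5% of all genes tested. Etv5 fell by 0.85 log2 (adjusted p = 0.0119 in limma), Ets2, another ETS factor, by 0.38 (0.00518) and Acaca, the acetyl-CoA carboxylase that TRIB3 can bring to COP1, by 0.29 (0.025), while Ncoa3, a coactivator of nuclear receptors, rose by 0.30 (0.00719). The fifth, Foxo1, a forkhead factor of insulin signalling, rose by 0.19 over both sets (adjusted p = 0.047 in limma), which averages opposite directions. Its mean went from 14.7 ± 2.09 to 19.99 ± 0.166 RPKM in set 1 (n = 3 each). In set 2 Foxo1 was 14.8 ± 0.961 in controls and 14.3 ± 1.72 after Cop1 deletion (n = 4 each), with overlapping ranges. The mean of Etv5 went from 5.39 ± 1.77 to 2.14 ± 0.645 RPKM in set 2 (n = 4 each), while in set 1 it was 4.94 ± 3.17 and 2.80 ± 0.682 (n = 3 each) with overlapping ranges and no call (adjusted p = 0.392 in limma). For Etv1 the change was -0.43 log2 and for Etv4 0.21, neither called (adjusted p = 0.0525 and 0.302 in limma). Among 5 partners of Tribbles proteins, only Akt2, the insulin-responsive AKT kinase, was called over both sets, with a decrease of 0.22 log2 (SE 0.05, adjusted p = 0.00249 in limma). Its mean went from 13.3 ± 0.463 to 10.5 ± 0.764 RPKM in set 1 (n = 3 each) and from 8.27 ± 0.718 to 7.58 ± 0.385 in set 2 (n = 4 each).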

How the data were processed

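The deposited table holds RPKM per gene by NCBI Gene number; the submitters' processing notes name build mm9. Which aligner, counter and annotation made it is not given in the sources used here. Columns were matched to libraries by the sample number in the titles; 2 of 24 columns could not be placed (1 number stands in 2 titles) and were not used. The labels do not tie libraries to animals, so p-values measure the spread between libraries. The test took genes that reached 1 RPKM in 4 or more libraries (14342, with all 10 members). limma 3.58.1 (R 4.3.3, mean-variance trend, robust variance) fitted log2(RPKM + 0.5) with 1 mean for each of 6 groups. The 8 contrasts were 2-sided, with Benjamini-Hochberg adjustment over all genes tested and a threshold of 0.05. The fit was tested on simulated data. Cop1 passes the filter through its higher libraries, so the filter lends its decrease no support. The members, lists and tests were chosen with earlier results of these data known. By rule the text names the 10 genes, the 5 genes most like Cop1 and each Tribbles gene, and per list at most 4 genes called over both sets, by adjusted p; Foxo1, Psat1, Ddit3, Chac1, Nupr1, Ddit4 and the marker genes were named after their values were seen. Alternatives covered pseudocount, filter, scaling, fit and each library in turn. Promoters came from RefSeq (GRCm38.p6).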

Additional observations from a re-analysis of the deposited data

Results flagged for a closer look

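Among the groups of 4 libraries, 40 combinations of gene and group were searched for a library far from the rest, and chance alone flags about 1 in 20. One stood out: Ddb1 in set 2 Cop1 deletion replicate 2 was 97.5 RPKM, with the next library at 107.4, a gap of 0.853 of the range of the group. The same library had the lowest Cul4a (21.4) and Cul4b (11.6) and the highest Dda1 (28.8) and Rbx1 (26.0) of all set 2 libraries.

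The change of Trib1 after Cop1 deletion differed between the sets by -1.25 log2, from -0.04 in set 1 to 1.21 in set 2 (adjusted p = 0.0011 in limma).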

How the results depend on the processing

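No paired analysis was possible because the replicate numbers of these libraries only follow accession order and pair nothing. The number of the 10 genes called after Cop1 deletion in set 1, 1 in all, was 2 without the trend, 3 with library weights and 2 without the pair of set 2 Cop1 deletion libraries highest in immune markers. In set 2 it was 4 with weights, from 2. For the Etv1/4/5 deletion against Cop1 deletion it was 1 at equal total RPKM, 2 with weights and 1 without that pair, from 0, and against control 0 with the set alone and 3 with weights, from 1. For the Etv4/5 deletion against Cop1 deletion it was 1 with a pseudocount of 1, median-ratio scaling or Xist as covariate and 2 with weights, from 0. For the difference between sets it was 4 with weights, from 1. Leaving out 1 library at a time gave 0 to 2 in set 1 and 2 to 4 in set 2 after Cop1 deletion, 0 to 1 for Etv1/4/5 against Cop1 deletion and against control, and 0 to 1 for Etv4/5 against Cop1 deletion. The causes were not tested.

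Changes of sign fell on values that were not called. Equal total RPKM moved the median of all genes by over 0.1 log2, to 0.12 for set 1 Cop1 deletion, -0.13 for Etv1/4/5 against Cop1 deletion and 0.20 for the difference between sets. Equal total RPKM gave Dda1 0.047, Cul4b 0.093, Trib1 0.090 and Trib3 0.12 for set 1 Cop1 deletion, Det1 -0.054, Rbx1 -0.034 and Trib2 -0.017 for set 2 Cop1 deletion, Dda1 0.024 for Cop1 deletion over both sets. It also gave Cul4a -0.14 for Etv1/4/5 against Cop1 deletion, Cul4b -0.066 for Etv4/5 deletion against control, Det1 0.039 and Dda1 0.046 for the difference between sets. Quantile scaling gave Cul4b 0.0029, Trib1 0.0047 and Trib3 0.0099 for set 1 Cop1 deletion, Dda1 0.013 for Cop1 deletion over both sets, Cul4a -0.034 for Etv1/4/5 against Cop1 deletion. It also gave Cul4a 0.027 for Etv4/5 deletion against control. Library weights gave Trib3 0.23 for set 1 Cop1 deletion, Det1 -0.049 for set 2 Cop1 deletion, Cul4a -0.015 and Cul4b 0.0040 for Etv1/4/5 against Cop1 deletion. It also gave Trib3 -0.0091 for Etv4/5 against Cop1 deletion, Det1 -0.0071 for Etv4/5 deletion against control. Xist as covariate gave Cul4a -0.019 for Etv1/4/5 against Cop1 deletion, Cul4a 0.048 for Etv4/5 deletion against control. Leaving out the pair gave Dda1 -0.0094 for set 2 Cop1 deletion, Trib3 -0.067 for Etv4/5 against Cop1 deletion, Rbx1 -0.015 for the difference between sets.

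Leaving out 1 library at a time changed the sign of these values. For set 1 Cop1 deletion the range was -0.0019 to 0.062 (Cul4a), -0.24 to 0.34 (Trib3), -0.25 to 0.020 (Det1) and -0.14 to 0.050 (Trib1). For set 2 Cop1 deletion the range was -0.073 to 0.072 (Det1), -0.028 to 0.13 (Trib2) and -0.0084 to 0.11 (Rbx1). For Cop1 deletion over both sets the range was -0.027 to 0.043 (Ddb1), -0.038 to 0.013 (Dda1) and -0.12 to 0.015 (Det1). For Etv1/4/5 against Cop1 deletion the range was -0.021 to 0.018 (Cul4b) and -0.026 to 0.022 (Cul4a). For Etv1/4/5 deletion against control the range was -0.012 to 0.041 (Rbx1) and -0.043 to 0.23 (Det1). For Etv4/5 deletion against control the range was -0.074 to 0.040 (Cul4a), -0.016 to 0.045 (Cul4b) and -0.0064 to 0.14 (Det1). For the difference between sets the range was -0.26 to 0.0092 (Det1) and -0.045 to 0.075 (Rbx1).

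The calls of Cop1 and Trib1 after Cop1 deletion in set 2 and over both sets, in the Etv4/5 deletion against control, and of Trib1 for the difference between sets kept their direction and side of the threshold in all alternatives run. The call of Cop1 in set 1 is also gained without set 2 control replicate 4 (adjusted p = 0.0479 in limma), without the trend (0.0364) and with weights (0.000288), and depth limits Cop1 most, at 77 to 423 reads.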
